A study of Mus musculus with 10 samples.

Results

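The 9 genes described here encode chemokines of the CXC, CC and CX3C classes that the cultured tumour cells may transcribe: Cxcl1, Cxcl5, Cxcl12, Ccl2, Ccl5, Ccl7, Ccl8, Ccl9 and Cx3cl1. They were taken by name from the 41743 gene names of the deposited tables, and all 9 were among the 12595 genes that passed the filter on low counts. Poly-A RNA was sequenced from K7M2, a mouse osteosarcoma cell line, and from 4 lines derived from it, with 2 libraries per line. The T567A line (genotype label Ezrin-T567A transfected Ezrin -/-) was disrupted at the ezrin gene by CRISPR/Cas9 and stably carries ezrin whose regulatory threonine near the C terminus is replaced by alanine and cannot be phosphorylated. The T567D line (Ezrin-T567D transfected Ezrin -/-) carries ezrin with an acidic residue there that mimics phosphorylation, the wild-type line (Ezrin-WT transfected Ezrin -/-) carries unmutated ezrin, and the empty-vector line (Mock transfected Ezrin -/-) carries no ezrin insert. Parental K7M2 cells have the genotype label WT and received neither the disruption nor a vector, so every derived line differs from them by disruption, derivation and stable transfection at once. Each construct was present in 1 stable line, and the titles of the 4 derived lines share the tag col3, taken to stand for 1 clone, so that construct and line cannot be told apart. No line received any other treatment, per the labels.

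Chemokines are small secreted proteins that guide the movement of leukocytes through receptors of the G protein-coupled class, after binding to heparan sulphate on cell surfaces and matrix. CXC chemokines such as Cxcl1 and Cxcl5 draw neutrophils through the receptor Cxcr2, CC chemokines such as Ccl2 and Ccl7 draw monocytes through Ccr2, and Cxcl12 retains blood-forming and immune cells in bone marrow through Cxcr4. Their genes are switched on in tumour and stromal cells by inflammatory signals that reach NF-kB, and some also by interferons.

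Total counts per library lay between 14679424 and 18230763, and the floor of 3 counts amounts to 0.167 to 0.207 CPM, where CPM is counts-per-million on the TMM-scaled library total. Ezr, the disrupted gene, stood at 248 and 253 CPM in the T567A libraries, 204 and 181 in T567D, 230.4 and 233 in wild type, 72.4 and 72.9 in empty vector, and 164 and 166 in parental. The osteoblast-lineage label was checked on 9 markers: 6 had a mean of at least 1 CPM, namely Runx2, Col1a1, Col1a2, Alpl, Sparc and Spp1, while Sp7, Ibsp and Bglap were at most 0.174 CPM as line means. Endothelial and epithelial markers summed to 1.89 to 2.85 CPM per library over 7 genes, of which 2 had 0 counts throughout. Of 12 leukocyte markers 4 had 0 counts in all 10 libraries, among them Adgre1, Cd3e and Nkg7, and Ptprc was at most 0.414 CPM in any. A mean of at least 1 CPM was reached by 3 of the 12. Csf1r stood far above the rest at 1180 to 1619 CPM as line means, while Ly6g, Cd68 and Lyz2 averaged 1.81, 1.65 and 0.673 RPKM over the 10 libraries. The leukocyte list without Csf1r summed to 6.28 to 7.01 CPM in T567A, 5.73 to 6.70 in T567D, 6.23 to 7.48 in wild type, 3.82 to 3.84 in empty vector and 3.02 to 3.85 in parental libraries. The share of counts on mitochondrially encoded genes was 1.90% and 1.44% for T567A, against 0.844% to 1.33% for the other 8 libraries. Nothing in the labels ties the 2 libraries of a line to separate cultures. The p-values therefore cover the spread among these libraries alone, and that spread may be technical. In bulk RNA, fewer cells that transcribe a gene and less RNA per cell cannot be told apart.

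Of the 9 genes, 5 lie on mouse chromosome 11 and 2 on chromosome 5, in clusters of chemokine genes (positions on GRCm38, gene bodies of the GENCODE annotation). Ccl2 (chr11:82035571-82037453), Ccl7 (chr11:82045712-82047525) and Ccl8 (chr11:82115185-82116799) lie on the plus strand of a 270.1 kb cluster with Ccl11, Ccl12 and Ccl1. Ccl5 (chr11:83525778-83530518) and Ccl9 (chr11:83572919-83578636) lie on the minus strand of a 138.9 kb cluster with Ccl6, Ccl3 and Ccl4, 1.49 Mb farther along. Cxcl5 (chr5:90759360-90761624) and Cxcl1 (chr5:90891241-90893115) lie on the plus strand of a 146.6 kb cluster with Ppbp, Pf4, Cxcl3, Cxcl15 and Cxcl2. Cxcl12 (chr6:117168535-117181367) has no other chemokine gene beside it, and Cx3cl1 (chr8:94772009-94782427) lies between Ccl22 and Ccl17. Cxcl12 and Cx3cl1 are both on the plus strand. All 9 are annotated as protein-coding, each with 3 or 4 exons in its longest model. Only Ccl2 is overlapped by another gene, the opposite-strand model Gm17268, which had 0 counts in every library.

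Promoters of 5 of the 9 genes (Cxcl1, Cxcl12, Ccl8, Ccl9 and Cx3cl1) were matched in RefSeq's promoter sequences of build GRCm38.p6, and the 250 bases before each start were searched on both strands for 3 motifs. The NF-kB consensus, in its usual degenerate form, was found in 3.9% of all 32851 promoters of that length, the interferon-stimulated response core TTCNNTTTC in 7.13% and the AP-1 site TGANTCA in 6.75%. Cxcl1 held an NF-kB match at -71 to -61 relative to its start, where a match on each strand overlaps the other. Ccl9 held an AP-1 match at -53 to -47 and an NF-kB match at -35 to -26, and the windows of Cxcl12, Ccl8 and Cx3cl1 held none of the 3. The windows around these matches are shown in the direction of transcription with the matched bases in capitals. Whether any match bears on the level of its gene over the lines was not tested. Cxcl3, another gene of the chromosome 5 cluster, is set beside Cxcl1, since it carries the same letters at -73 to -63. Cxcl2, which lies nearer to Cxcl1, also holds these letters, at -97 to -87, and had too few counts to be tested. Cxcl10, an interferon-inducible ligand that is not among the 9, held all 3 motifs, with the interferon core at -213 to -205, NF-kB at -159 to -150 and at -103 to -94, and AP-1 at -74 to -68. A match is a run of letters in this window and not a measured binding site.
Cxcl1, chr5:90891125-90891224, plus strand: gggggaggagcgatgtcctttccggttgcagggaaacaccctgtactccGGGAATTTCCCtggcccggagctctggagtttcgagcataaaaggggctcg
Cxcl3, chr5:90785981-90786080, plus strand: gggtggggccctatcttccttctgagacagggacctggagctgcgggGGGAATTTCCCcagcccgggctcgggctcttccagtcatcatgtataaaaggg
Ccl9, chr11:83578637-83578736, minus strand: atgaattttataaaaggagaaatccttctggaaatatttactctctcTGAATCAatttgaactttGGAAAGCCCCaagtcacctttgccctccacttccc
Cxcl10, chr5:92348950-92349109, minus strand: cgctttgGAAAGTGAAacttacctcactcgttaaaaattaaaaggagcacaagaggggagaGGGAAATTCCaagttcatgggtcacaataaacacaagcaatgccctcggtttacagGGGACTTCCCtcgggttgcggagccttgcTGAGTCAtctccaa

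The chemokine genes differed between the 5 lines in 5 patterns. Cxcl1 and Cxcl5 were highest in the empty-vector line, Ccl2, Ccl5 and Ccl7 were highest in the T567A line, Ccl9 was high in both T567A and parental cells, Cxcl12 was highest in parental cells, and Cx3cl1 and Ccl8 were lowest in parental cells. All 9 passed the test of any difference over the 5 lines (edgeR's quasi-likelihood F-test, Benjamini-Hochberg adjusted p from 1.7e-16 for Cxcl1 to 5.6e-05 for Ccl8). That test called 78% of all genes tested, so the count of 9 says little about these genes in particular.

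**Figure D1:**
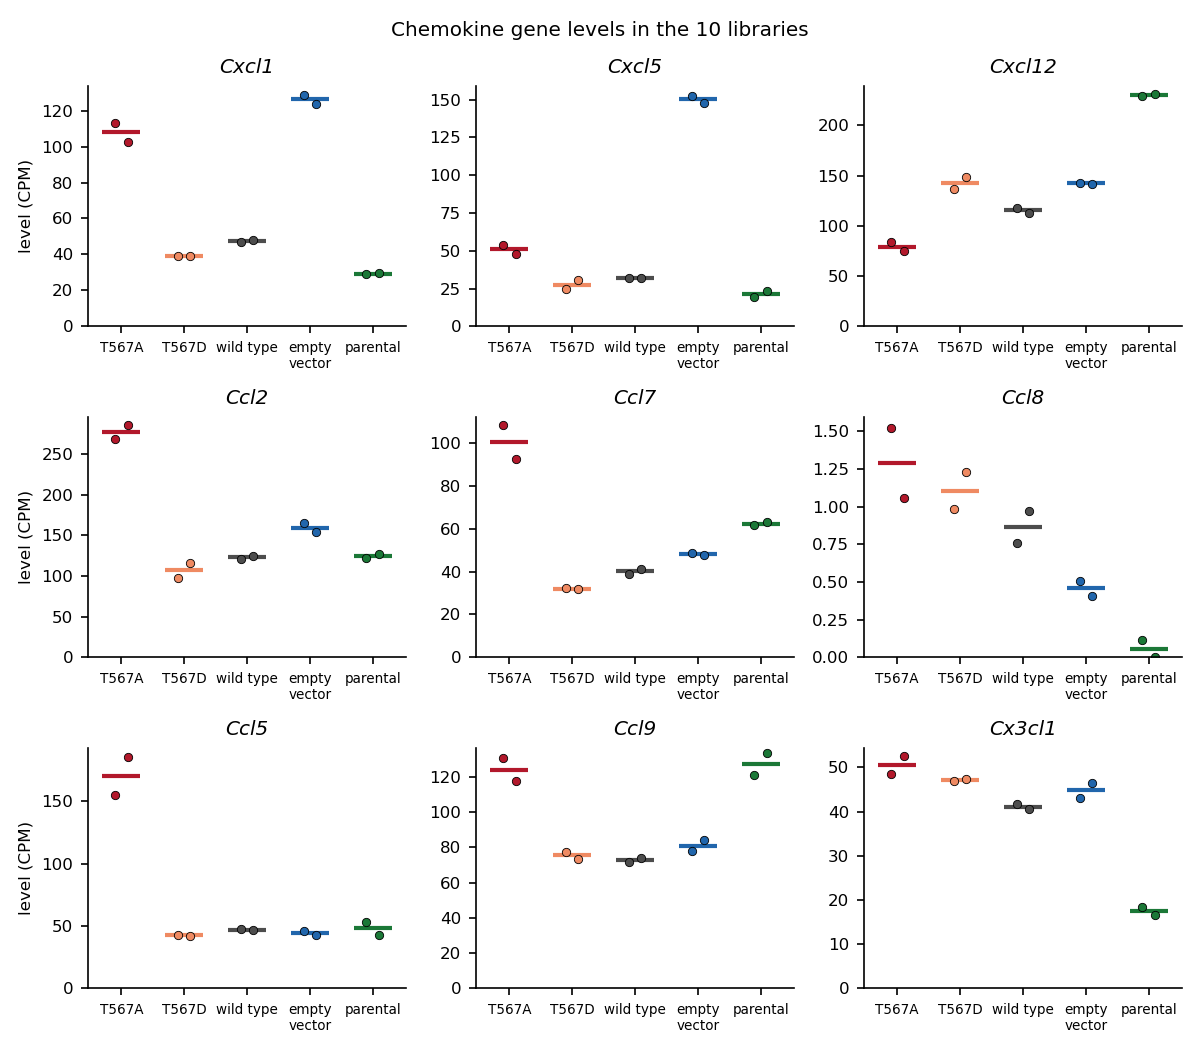
Level of each chemokine gene in CPM (vertical axes, each from 0) in the 2 libraries of each line, as points, with the mean of the line as a bar. Cxcl1 and Cxcl5 peak in the empty-vector line at means of 126 and 150.2 CPM, and Ccl5 stands at 155 and 186 CPM in the T567A libraries against 42.2 to 53.5 in the other 8.

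Per unit of transcript length, in the deposited RPKM, Ccl2 was the most abundant of the 9 messages in every line, with means of 225 in T567A, 88.6 in T567D, 102 in wild type, 131 in empty vector and 99.9 in parental cells. Below it the order of levels changed from line to line. In T567A it ran Ccl5 (164), Ccl7 (116), Cxcl1 (53.1), Ccl9 (37.6), Cxcl5 (25.2), Cx3cl1 (11.9), Cxcl12 (8.93) and Ccl8 (2.32 RPKM). Cxcl5 (75.6) and Cxcl1 (63.2 RPKM) came directly after Ccl2 in the empty-vector line, and they were sixth and seventh in parental cells (14.3 RPKM for Cxcl1 and 10.5 for Cxcl5). Ccl8 was last in every line, at no more than 2.32 RPKM as a line mean.

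The neutrophil attractants Cxcl1 and Cxcl5 had their peak in the line without restored ezrin. Cxcl5 stood at 54.0 and 47.8 CPM in the T567A libraries, 25.0 and 30.3 in T567D, 32.1 and 31.9 in wild type, 152 and 148 in empty vector, and 19.5 and 23.5 in parental. The empty-vector libraries lay far above all 8 others, the T567A libraries came next, and no line overlapped another. Cxcl5 fell by 2.23 ± 0.089 on the log2 scale (SE) in wild type against empty vector, to 0.213 times the empty-vector level (adjusted p = 2.8e-13), and rose by 2.80 ± 0.094 in empty vector against parental (adjusted p = 7.7e-16).

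Cxcl1 stood at 113 and 103 CPM in the T567A libraries, 39.4 and 39.1 in T567D, 47.1 and 48.0 in wild type, 129 and 124 in empty vector, and 29.2 and 29.5 in parental. The 5 lines did not overlap, and T567A lay close below empty vector instead of close above wild type. Cxcl1 fell by 1.41 ± 0.068 in wild type against empty vector (adjusted p = 5.8e-12), and was 1.18 ± 0.069 higher in T567A than in wild type (adjusted p = 1.6e-11). Between T567A and empty vector it differed by -0.23 ± 0.064 (adjusted p = 0.0060), a call that no longer held when empty-vector replicate 2 (adjusted p = 0.068) or T567A replicate 3 (adjusted p = 0.076) was left out.

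The balance of the 2 neutrophil attractants changed with the line as well. The RPKM of Cxcl5 divided by that of Cxcl1 was 0.481 and 0.468 in the T567A libraries, 0.638 and 0.781 in T567D, 0.687 and 0.669 in wild type, 1.19 and 1.20 in empty vector, and 0.672 and 0.803 in parental. Cxcl5 exceeded Cxcl1 only in the empty-vector libraries, and the ratio was lowest in T567A. In T567A against empty vector Cxcl5 fell by 1.56 ± 0.086 (adjusted p = 6.7e-12), beside the smaller difference of Cxcl1 given above. T567D and wild type did not pass the test for either gene, with differences of -0.28 ± 0.073 for Cxcl1 (adjusted p = 0.068) and -0.21 ± 0.099 for Cxcl5 (adjusted p = 0.46). The first lies near the threshold and its call depends on the setting: without the filter Cxcl1 was called (adjusted p = 0.038). Genes within 2 Mb of this chromosome 5 cluster, 23 tested genes that are not chemokines, had a median change of -0.05 in wild type against empty vector and 0.07 in empty vector against parental.

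Ccl2, the main monocyte attractant, and its neighbour Ccl7, which acts on the same receptor, were highest in the T567A line. Ccl2 stood at 268 and 286 CPM in the T567A libraries, 97.3 and 116 in T567D, 121 and 125 in wild type, 165 and 154 in empty vector, and 122 and 127 in parental. T567A lay above all other lines, empty vector came next, and the wild-type and parental libraries overlapped. Ccl2 was 1.17 ± 0.074 higher in T567A than in wild type (2.25-fold, adjusted p = 7.0e-11), 0.80 ± 0.073 higher than in empty vector (adjusted p = 1.7e-08) and 1.38 ± 0.075 higher than in T567D (adjusted p = 4.9e-12).

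Ccl7 stood at 108 and 92.6 CPM in the T567A libraries, 32.2 and 31.7 in T567D, 39.0 and 41.2 in wild type, 48.8 and 47.7 in empty vector, and 61.7 and 63.1 in parental. No line overlapped another, and parental cells came second where Ccl2 had the empty-vector line second. Ccl7 was 1.32 ± 0.078 higher in T567A than in wild type (adjusted p = 1.9e-11), and it fell by 0.37 ± 0.078 in empty vector against parental (adjusted p = 3.9e-04), where Ccl2 rose by 0.35 ± 0.074 (adjusted p = 3.7e-04). The RPKM of Ccl7 divided by that of Ccl2 lay between 0.387 and 0.574 in the 8 derived libraries, against 0.718 and 0.704 in the parental ones. In wild type against empty vector Ccl2 fell by 0.37 ± 0.074 (adjusted p = 0.0017). Ccl7 fell by 0.27 ± 0.081 there (adjusted p = 0.027), a call that was lost without either library of either line (adjusted p = 0.076 to 0.21), in DESeq2 (adjusted p = 0.077) and with upper-quartile scaling (adjusted p = 0.058).

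Ccl8, which in the mouse acts on the receptor Ccr8, was scarce everywhere. It had 41 counts over the 2 T567A libraries, 38 in T567D, 30 in wild type, 16 in empty vector and 2 in parental, the last below the floor in each library. Ccl8 passed the filter on low counts through derived lines, so the filter itself favoured calls of a higher level in them. Against parental cells the ratio of counts was 21.7 in T567A (95% counting interval 5.64 to 185), 19.0 in T567D (4.90 to 162), 14.9 in wild type (3.77 to 128) and 7.85 in empty vector (1.85 to 70.4), intervals that cover counting error only. Among the derived lines Ccl8 was called only in T567A against empty vector (1.46 ± 0.43, adjusted p = 0.0087), and that call was lost without T567A replicate 2 (adjusted p = 0.071), without empty-vector replicate 3 (adjusted p = 0.066) and in DESeq2 (adjusted p = 0.067). Ccl8 in empty vector against parental, called with adjusted p = 0.0064, was lost without parental replicate 3 (adjusted p = 0.078). Ccl8 in T567D against empty vector missed the threshold (1.26 ± 0.44, adjusted p = 0.052) and passed it without either parental library (adjusted p = 0.043 in each case). The summed CPM of the leukocyte markers other than Csf1r was also higher in T567A, T567D and wild type than in parental cells, as given above. Its part in the Ccl8 result was not tested. The rise was not shared by the whole list. Of the 5 tested markers, Csf1r among them, 2 were called higher in T567A against parental (background 31.4%), with a median of -0.02. In T567D (background 27.1%) and wild type (background 27.7%) 3 were called higher, and none was lower in these 3 comparisons.

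Ccl5, which draws T cells and monocytes, showed the largest rise of the 9 in T567A against wild type. It stood at 155 and 186 CPM in the T567A libraries, 42.9 and 42.2 in T567D, 47.5 and 46.6 in wild type, 46.4 and 42.6 in empty vector, and 53.5 and 43.1 in parental. The T567A libraries lay above all others, and the 4 remaining lines lay within 42.2 to 53.5 CPM with none of their 6 pairwise differences called. Ccl5 was 1.86 ± 0.095 higher in T567A than in wild type (3.63-fold, adjusted p = 5.5e-11) and 2.01 ± 0.096 higher than in T567D (4.01-fold, adjusted p = 1.9e-11). The call of 2 of these differences depends on a single library: without parental replicate 3 Ccl5 was lower in T567D (-0.33, adjusted p = 0.014) and in empty vector (-0.28, adjusted p = 0.038) than in the remaining parental library.

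Ccl9, a rodent chemokine made by macrophages and osteoclasts that acts on Ccr1, shared its cluster with Ccl5 but not its pattern over the lines. Its levels were 131 and 118 CPM in the T567A libraries, 77.4 and 73.6 in T567D, 71.9 and 73.7 in wild type, 78.1 and 84.0 in empty vector, and 121 and 133 in parental. T567A and parental overlapped at the top, and T567D and wild type overlapped at the bottom. Ccl9 was 0.77 ± 0.073 higher in T567A than in wild type (adjusted p = 3.6e-08) and fell by 0.80 ± 0.072 in wild type against parental (adjusted p = 5.1e-09), while T567A and parental differed by -0.04 ± 0.070 (adjusted p = 0.68).

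The rises in T567A on chromosome 11 went together with a smaller shift of the genes around the clusters. Within 2 Mb of the Ccl2 cluster, 35 tested genes other than chemokines had a median change of 0.39 in T567A against wild type, with 23 higher and 1 lower, where the median over all 12595 genes was near 0. Around the Ccl5 cluster the 36 such genes had a median of 0.36, with 21 higher and 0 lower, and 25 genes lie in both windows. Against T567D the medians were 0.43 and 0.41, and against empty vector 0.35 and 0.34, whereas T567D against wild type gave -0.02 and -0.04 and wild type against empty vector gave -0.01 and 0.02. Set beside the neighbourhood, the change of Ccl5 in T567A against wild type was 1.86 beside a median of 0.36. Ccl7 exceeded its neighbourhood by 0.94, Ccl2 by 0.78, Ccl9 by 0.41 and the uncalled Ccl8 by 0.16. The part of the regional shift in these changes was not tested.

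In 4 Mb steps along chromosome 11, the steps within 8 Mb of the start of Ccl2 had medians of 0.21 to 0.38 in T567A against wild type. These 4 steps held 167 genes, of which 93 were higher and 4 lower. The 14 other steps with at least 20 genes had medians of -0.21 to 0.21, with 103 genes higher and 181 lower of 695. Steps with fewer genes had medians from -0.18 to 0.45. The highest was the adjoining step 8 to 12 Mb beyond Ccl2, with 7 higher and 2 lower of 11 genes, so the shift was not shown to end at 8 Mb. The step 56 to 52 Mb before Ccl2 had 0.30 over 12 genes. Against empty vector the farther steps with at least 20 genes reached a median of 0.32, in the steps 12 to 20 Mb beyond Ccl2, and against parental 0.44. In those comparisons too, medians of this size were not limited to the steps within 8 Mb of Ccl2. The windows and steps were chosen after these values had been seen. In T567D against wild type the medians of the 4 steps within 8 Mb were -0.05 to 0.01.

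**Figure D2:**
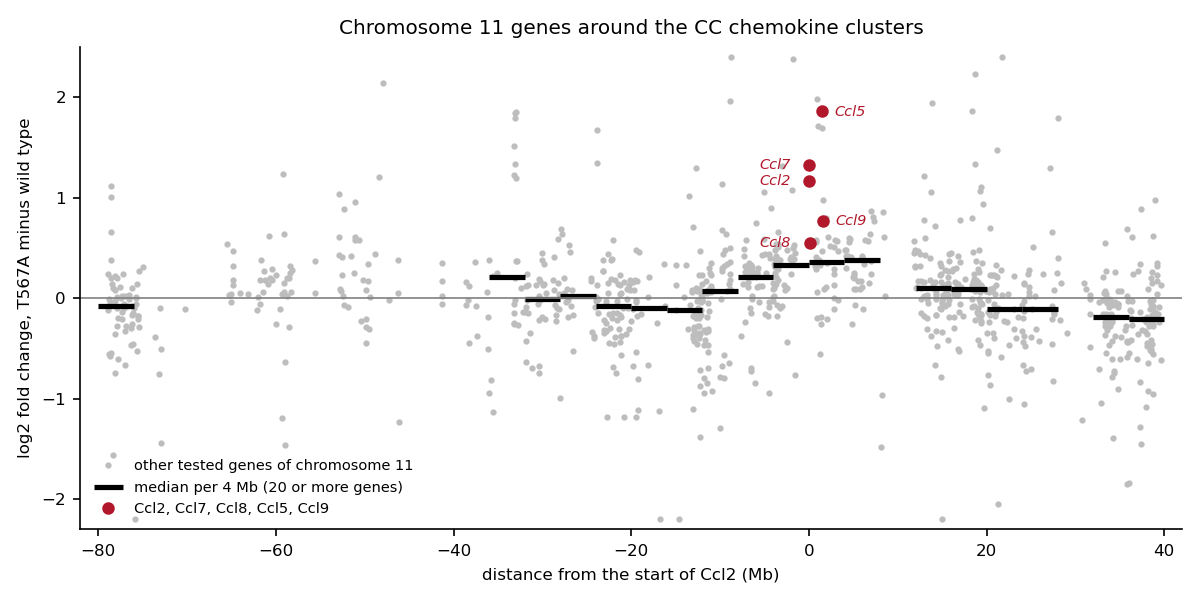
Log2 fold change of T567A minus wild type (vertical axis) of the tested genes of chromosome 11 against their distance from the start of Ccl2 in Mb (horizontal axis), with other genes as grey points, the median of each 4 Mb step with at least 20 genes as a black bar and the 5 CC chemokine genes in red. The bars near Ccl2 stand at 0.21 to 0.38 and the red points above them, and 6 grey points beyond the axis are drawn at its edge.

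Cxcl12, the stromal chemokine that retains cells in bone marrow, was highest in parental cells and lowest in T567A. It stood at 83.5 and 74.8 CPM in the T567A libraries, 137 and 149 in T567D, 118 and 112 in wild type, 143 and 142 in empty vector, and 229 and 231 in parental. Parental libraries lay above all derived ones, T567A lay below all others, and T567D and empty vector overlapped between them. Cxcl12 fell by 1.54 ± 0.068 in T567A against parental (adjusted p = 3.6e-14), by 1.00 ± 0.066 in wild type against parental (adjusted p = 3.7e-11) and by 0.69 ± 0.065 in empty vector against parental (adjusted p = 1.0e-08). The 24 tested genes within 2 Mb of Cxcl12 had medians of -0.38, -0.43 and -0.37 in these 3 comparisons, whose part was not tested.

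Among derived lines, Cxcl12 fell by 0.54 ± 0.069 in T567A against wild type (adjusted p = 2.3e-06) and by 0.85 ± 0.068 in T567A against T567D (adjusted p = 2.4e-09), while its neighbourhood had medians of 0.05 and -0.02. It is the only one of the 9 genes called in T567D against wild type, where it was 0.31 ± 0.067 higher (1.24-fold, adjusted p = 0.017). That call was lost without wild-type replicate 1 (adjusted p = 0.097), wild-type replicate 3 (adjusted p = 0.32) or T567D replicate 3 (adjusted p = 0.21), and with limma on the deposited RPKM (adjusted p = 0.076 and 0.078 at the 2 pseudocounts). In wild type against empty vector it fell by 0.30 ± 0.066 (adjusted p = 0.0033), a call that was lost without wild-type replicate 3 (adjusted p = 0.063).

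Cx3cl1, a chemokine anchored in the membrane by a mucin stalk and shed by the proteases Adam10 and Adam17, separated the derived lines from parental cells. Its levels were 48.5 and 52.6 CPM in the T567A libraries, 47.0 and 47.3 in T567D, 41.7 and 40.5 in wild type, 43.1 and 46.6 in empty vector, and 18.5 and 16.6 in parental. All 8 derived libraries lay between 40.5 and 52.6 CPM, above both parental ones. Cx3cl1 was 1.53 ± 0.086 higher in T567A (2.89-fold, adjusted p = 2.0e-12), 1.43 ± 0.086 higher in T567D (adjusted p = 9.1e-12), 1.23 ± 0.087 higher in wild type (adjusted p = 1.1e-10) and 1.35 ± 0.087 higher in empty vector (adjusted p = 1.9e-11) than in parental cells. Of the 6 differences between derived lines only T567A against wild type was called, at 0.30 ± 0.078 (adjusted p = 0.0043), while T567A against empty vector (0.18 ± 0.077, adjusted p = 0.068) passed the threshold without T567A replicate 2 (adjusted p = 0.025). The 41 tested genes within 2 Mb of Cx3cl1 and its neighbours had medians of -0.01, -0.11, -0.15 and -0.24 in the comparisons of T567A, T567D, wild type and empty vector with parental.

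The comparison of T567A with wild type asks what changes when the restored ezrin cannot be phosphorylated at the regulatory threonine. Of the 9 genes 7 were higher (background 20.4% of all genes), 1 was lower (background 19.1%) and Ccl8 was not called, so that 8 were called where 39.6% of all genes were. Their median change was 0.77, against a median of 0.00 over all genes. The same direction held against the T567D line, where 6 were higher (background 22.5%), 1 was lower (background 21.6%) and Ccl8 and Cx3cl1 were not called (background 44.1% in either direction), with a median of 0.88. Both comparisons use the same T567A libraries.

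T567D against wild type asks the same of ezrin that mimics phosphorylation. Only Cxcl12 was called, as higher (background 0.818%), none was lower (background 0.524%), and 1.34% of all genes were called. The 8 uncalled genes had differences between -0.33 for Ccl7 and 0.35 for Ccl8, of which 5 had an unadjusted p under 0.05 (Cxcl1, Cxcl5, Ccl2, Ccl7 and Cx3cl1). Ccl7 (adjusted p = 0.058) and Cxcl1 (adjusted p = 0.068) lay just past the threshold and were called as lower without either of the T567A libraries in the fit (adjusted p = 0.011 for Ccl7 and 0.023 for Cxcl1).

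Wild type against empty vector asks what restoring ezrin changes. Of the 9 genes 5 were lower (background 7.36%), none was higher (background 8.25%) and 4 were not called, where 15.6% of all genes were called. The 5 were Cxcl1, Cxcl5, Cxcl12, Ccl2 and Ccl7, and the median over the 9 was -0.27 against -0.01 over all genes. With the replicate number as a block in the fit, 3 of them were called, without Cxcl12 and Ccl7. T567D against empty vector called 4 as lower (background 8.34%), which were Cxcl1, Cxcl5, Ccl2 and Ccl7, none as higher (background 9.43%), and 5 were not called (background 17.8% in either direction). T567A against empty vector called 5 as higher (background 23.7%), which were Ccl2, Ccl5, Ccl7, Ccl8 and Ccl9, and 3 as lower (background 22.7%), which were Cxcl1, Cxcl5 and Cxcl12, with Cx3cl1 not called (background 46.4% in either direction). These 3 comparisons share the empty-vector libraries.

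**Figure D3:**
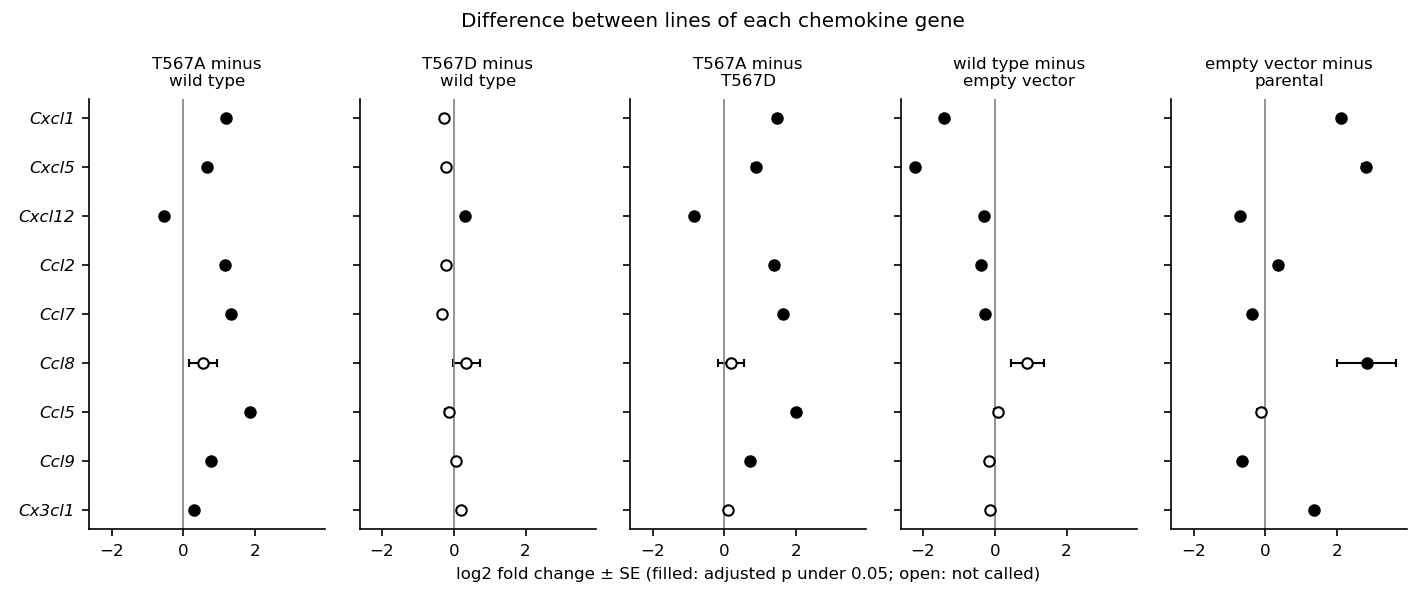
Log2 fold change with its standard error (horizontal axis) of each chemokine gene in 5 comparisons of lines, with filled points for an adjusted p under 0.05 and open points for genes not called. In T567A minus wild type 7 points are filled to the right of 0 and Cxcl12 to the left, in T567D minus wild type only Cxcl12 is filled, and the point of Ccl8 against parental rests on 2 parental counts.

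Each derived line was also set against parental cells, where most of the transcriptome differed. In empty vector 5 genes were higher (background 27.4%), 3 were lower (background 27.2%) and Ccl5 was not called (background 54.6% in either direction). In wild type 4 were higher (background 27.7%) and 3 lower (background 28.5%), with Ccl2 and Ccl5 not called (background 56.2%). In T567A 7 were higher (background 31.4%), 1 was lower (background 30.7%) and Ccl9 was not called (background 62.1%). In T567D 4 were higher (background 27.1%) and 4 lower (background 28.2%), with Ccl5 not called (background 55.4%). The calls of Ccl2 and Cxcl5 in T567D against parental each rest on single libraries: Ccl2 (-0.22 ± 0.075, adjusted p = 0.016) was lost without T567D replicate 1 (adjusted p = 0.33) or parental replicate 3 (adjusted p = 0.10) and with limma on RPKM (adjusted p = 0.089 and 0.093), and Cxcl5 (0.36 ± 0.10, adjusted p = 0.0060) without T567D replicate 3 (adjusted p = 0.15) or parental replicate 1 (adjusted p = 0.12). In all 4 derived lines Cxcl1, Cxcl5, Ccl8 and Cx3cl1 were called higher and Cxcl12 lower than in parental cells, comparisons that share the parental libraries. The share of all genes called alike in all 4 was not counted, so this says little about these genes in particular, and Ccl8 rests on 2 parental counts. Because Ccl8 passed the filter on low counts through derived lines, the filter favoured its higher calls, which the counts above include.

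Added over the 9 genes, the deposited RPKM came to 634 and 654 in the T567A libraries, 247 and 264 in T567D, 281 and 286 in wild type, 432 and 415 in empty vector, and 308 and 310 in parental. Ccl2 was the largest contributor in both of the lines with the highest sums, T567A and empty vector, and the make-up of the rest differed. Ccl2, Ccl5 and Ccl7 together made up 77.2% and 79.6% of the sum in T567A, 65.3% and 66.4% in T567D, 68.9% and 69.3% in wild type, 55.3% and 54.0% in empty vector, and 70.9% and 69.2% in parental. Cxcl1 and Cxcl5 made up 32.7% and 32.9% in empty vector, against 11.4% to 14.2% in the 6 libraries of the other derived lines and 7.70% and 8.33% in parental. Cxcl12 made up 1.48% and 1.30% in T567A, against 8.26% and 8.32% in parental.

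**Figure D4:**
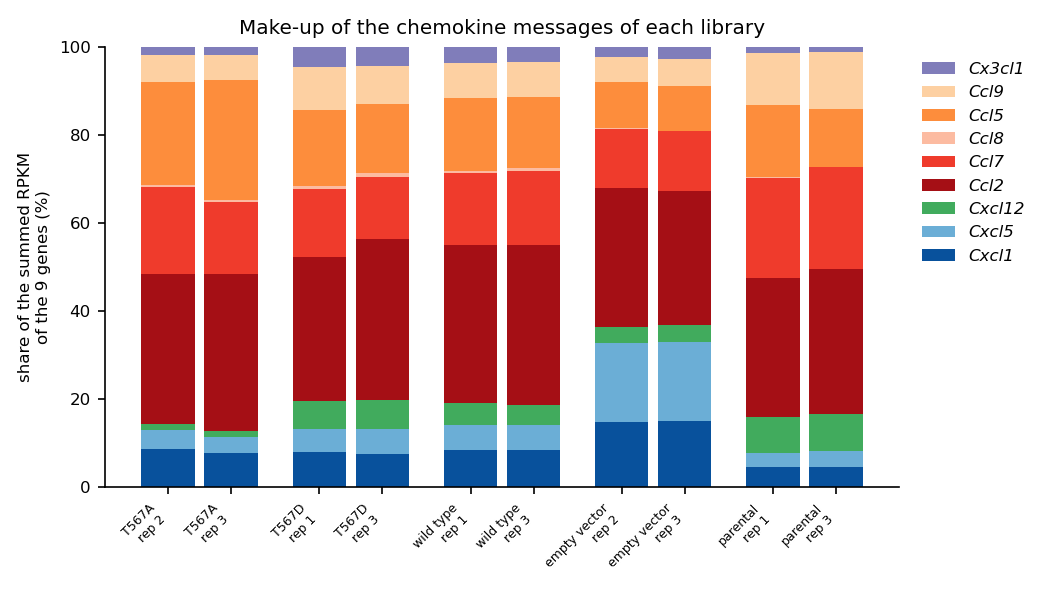
Share of each gene in the summed RPKM of the 9 chemokine genes (vertical axis, percent) in each of the 10 libraries. The 2 blue segments of Cxcl1 and Cxcl5 fill 32.7% and 32.9% in the empty-vector libraries, and the green segment of Cxcl12 shrinks to 1.48% and 1.30% in T567A.

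Other ligands of the family were taken from a list of 32, of which 31 were in the tables and 8 passed the filter. In T567A against wild type 5 of the 8 were higher (20.4% of all genes) and none was lower (19.1% of all genes), with a median of 1.28. Cxcl10, Cxcl9 and Cxcl11, the ligands of Cxcr3 that interferon induces in many cells, all rose there. The changes were 2.15 ± 0.064 for Cxcl10 (adjusted p = 6.7e-16), 2.30 ± 0.29 for Cxcl9 (adjusted p = 2.0e-06) and 1.83 ± 0.12 for Cxcl11 (adjusted p = 9.5e-11). Cxcl10 was at 318 and 323 CPM in the T567A libraries and 63.7 and 63.2 in T567D, 69.2 and 74.8 in wild type, 59.6 and 60.7 in empty vector and 42.3 and 44.1 in parental. The T567A libraries lay far above the other 8, which reached at most 74.8 CPM. Cxcl10 and Cxcl11 are overlapped by Art3 and Ccl25 by Elavl1, all on the opposite strand, and Cxcl11 is annotated as a polymorphic pseudogene in this build. Cxcl3, a neutrophil attractant, rose by 1.29 ± 0.38 (adjusted p = 0.010) at no more than 1.78 CPM in any library, and Ccl20, a ligand of Ccr6, by 1.27 ± 0.31 (adjusted p = 0.0027). Ppbp, Ccl25 and Ccl28 had changes of 0.35 ± 0.15, 0.13 ± 0.12 and 0.56 ± 0.34, which did not pass the test. Cxcl3 and Cxcl9 averaged 0.213 and 0.607 RPKM over the 10 libraries. Genes so scarce can pass the filter on low counts through the line where they are high. The filter may thus have favoured their higher calls and the count of 5.

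In wild type against empty vector 4 of these 8 ligands were higher (8.25% of all genes) and none was lower (7.36% of all genes). They were Cxcl10 (0.26 ± 0.067, adjusted p = 0.010), Cxcl11 (1.03 ± 0.16, adjusted p = 1.4e-04), Ppbp (0.66 ± 0.17, adjusted p = 0.011) and Ccl25 (0.49 ± 0.13, adjusted p = 0.014), the last a ligand of Ccr9. Cxcl2, a close relative of Cxcl1, was not tested, with 1 count over the 2 T567A libraries, 2 each in T567D and wild type, 1 in empty vector and 0 in parental. Ccl20 had 0.877 to 3.04 CPM in the 8 derived libraries and 0 counts in both parental ones. None of the 8 was called in T567D against wild type by edgeR's quasi-likelihood test, where 1, Cxcl10, had an unadjusted p under 0.05.

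Receptors for these ligands were nearly absent from the tumour cells. Of 24 chemokine receptor genes 3 passed the filter, and of these Ackr3, a scavenging receptor of Cxcl12, was the only one above 2 CPM, at a mean of 20.0 CPM in T567A, 16.1 in T567D, 17.4 in wild type, 16.2 in empty vector and 21.4 in parental. Cxcr4, the signalling receptor of Cxcl12, was at most 0.524 CPM in any library, and Cxcr2, the receptor of Cxcl1 and Cxcl5, at most 0.0578. Ccr2, the receptor of Ccl2 and Ccl7, had 0 counts in both T567A libraries and means of 0.291 CPM in T567D, 0.202 in wild type, 0.259 in empty vector and 0.699 in parental. Ccrl2, which binds chemoattractants without signalling, had means of 0.749 CPM in T567A, 0.348 in T567D, 0.203 in wild type, 0.200 in empty vector and 1.19 in parental. All 3 tested receptors were lower in empty vector than in parental cells, where 27.2% of all genes were lower. Ccr2 passed the filter on low counts mainly through the parental libraries, and scarce Ccrl2 also had its highest mean there. The filter itself thus favoured the lower calls of both, and the count of 3 says little about the receptors. Ackr3 fell by 0.40 ± 0.099 in empty vector against parental (adjusted p = 0.0016) and was not called in T567A against wild type (0.21 ± 0.099, adjusted p = 0.11).

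Genes that release or present chemokines were followed in a list of 11, of which 10 were tested. In empty vector against parental 8 of the 10 were higher (27.4% of all genes) and none was lower (27.2% of all genes), with a median of 0.36 beside 0.00 over all genes. The sheddases of Cx3cl1 were among them: Adam10 rose by 0.39 ± 0.068 (adjusted p = 4.4e-05) and Adam17 by 0.39 ± 0.073 (adjusted p = 9.6e-05), beside the rise of Cx3cl1 itself. In T567A against wild type 2 were higher (20.4% of all genes) and 5 lower (19.1% of all genes), with Adam17 0.45 ± 0.071 higher (adjusted p = 3.9e-05) and the heparan sulphate carriers Sdc3 (-0.74 ± 0.096, adjusted p = 3.1e-06) and Sdc1 (-0.47 ± 0.072, adjusted p = 2.5e-05) lower.

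Signalling genes upstream of chemokine transcription were read against the same shares of all genes, 20.4% higher and 19.1% lower in T567A against wild type. The interferon list read with them also holds effectors that interferon induces, such as Isg15, Ifit1 and Rsad2, which are not upstream genes. Of 15 receptor and adaptor genes 5 were higher and 3 lower there, led by Tlr3, a sensor of double-stranded RNA, which rose by 1.84 ± 0.087 (adjusted p = 8.0e-13) to a mean of 126 CPM in T567A, against 35.2 in wild type, and by Tlr2 (0.96 ± 0.092, adjusted p = 4.3e-08). Of 12 genes of the interferon axis 11 were higher and none was lower, with a median of 1.23, among them the antiviral effector Rsad2 at 2.53 ± 0.092 (adjusted p = 1.2e-14). Of 15 NF-kB subunits and inhibitors 3 were higher and 5 lower, with a median of -0.07. None of the genes of these 3 lists was called in T567D against wild type by edgeR's quasi-likelihood test, where 2 interferon genes and 1 NF-kB gene had an unadjusted p under 0.05.

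In wild type against empty vector 5 of the 15 NF-kB genes were lower (7.36% of all genes) and 1 was higher (8.25% of all genes). Nfkbiz, an atypical inhibitor family member that also activates some promoters, stood at 20.2 and 16.4 CPM in the T567A libraries, 10.5 and 13.0 in T567D, 12.7 and 12.7 in wild type, 26.2 and 24.4 in empty vector, and 15.8 and 14.5 in parental. It was highest in empty vector and next in T567A, as Cxcl1 and Cxcl5 were. Its parental libraries lay above those of wild type and T567D, whereas Cxcl1 and Cxcl5 were lowest in parental cells. Nfkbiz fell by 0.99 ± 0.11 in wild type against empty vector (adjusted p = 3.8e-06). The ribonuclease gene Zc3h12a, whose product degrades inflammatory messages, averaged 11.6 CPM in wild type and 26.3 CPM in empty vector, and fell by 1.18 ± 0.099 (adjusted p = 5.8e-08), and was 1 of 2 lower genes among 12 mRNA decay factors. Of 9 tested inflammatory cytokine genes 2 were lower, Tnf (-1.49 ± 0.31, adjusted p = 0.0023), which reached at most 2.89 CPM in any library, and Lif (-0.68 ± 0.12, adjusted p = 4.3e-04). None of the 15 receptor and adaptor genes was called there by edgeR's quasi-likelihood test, and 4 had an unadjusted p under 0.05, all lower.

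As a description over the 10 libraries, which share lines and total counts, the 9 genes fell into loose groups by the Pearson correlation of log2 CPM. Cxcl1 and Cxcl5 had r = 0.90, and Ccl2 had r = 0.91 with Ccl5 and 0.86 with Ccl7. Ccl8 and Cx3cl1 had r = 0.92, and Ccl7 and Ccl9 r = 0.87. Cxcl12 ran opposite to Ccl8 (r = -0.83), Cx3cl1 (r = -0.82) and Ccl5 (r = -0.73). Among all other tested genes, the closest to Cxcl1 were Sdc4, Exosc8 and Ifrd1 (r = 0.97 to 0.99), and the closest to Cxcl5 were Nsa2, Zcchc9 and Rad17 (r = 0.96 to 0.97). Ccl5 was closest to Wnt9b, Irgm1 and Rsad2 (r = 0.99 each), Ccl2 to Nmd3, Sp100 and Psmb10, and Ccl7 to Naa25, Dbi and Lars. Wnt9b was scarce, at a mean of 0.814 CPM over the 10 libraries, and was 9.13 higher on the log2 scale in T567A than in wild type. Wnt9b and Irgm1 lie on chromosome 11, as Ccl5 does. Cxcl12 was closest to Lmnb2, Hmgb3 and Zfp746, Ccl8 to Poln, Nat8f3 and Rab15, Ccl9 to Rab8b, 4930511M06Rik and Phf21a, and Cx3cl1 to Gm6329, Colec12 and Hadhb, with r between 0.97 and 0.99.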

How the data were processed

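Poly-A RNA of 10 libraries, 2 from each of 5 lines, was prepared with dUTP strand marking and sequenced on a DNBSEQ platform, per the labels' protocols. For each library the authors deposited a table of raw read counts per gene name and a table of RPKM values, and the genome build is GRCm38, per the submitters' processing notes. Between any library and 1 chosen library, RPKM and counts of a gene kept 1 ratio within 1% for 100% of the genes compared. Neither the aligner and counter nor the handling of strand and of reads shared by similar genes is given in the sources used here, and counts of close relatives and overlapping genes are uncertain. Groups and replicate numbers come from the sample titles.

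Counts of all 41743 gene names were filtered with filterByExpr (minimum count 10, minimum total 15), scaled by TMM and fitted over all 10 libraries in edgeR 4.0.16 under R 4.3.3, as 1 robust quasi-likelihood model with 5 line means and 5 residual degrees of freedom. Tests were two-sided, with Benjamini-Hochberg adjustment over all 12595 genes tested, and a gene was called at an adjusted p under 0.05. Alternatives were RLE and upper-quartile scaling, no filter, a block for replicate number, a fit of just the 2 lines compared, DESeq2 1.42.0, limma 3.58.1 on log2(RPKM + 1) and log2(RPKM + 0.1), an adjusted p under 0.01, and each library left out in turn. No 2 libraries held identical counts, and counts within each line differed by more than sampling noise, with a chi-square per degree of freedom of 2.44 to 8.45.

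The named genes were the 9 chemokine genes, every tested gene of the lists of other ligands and receptors, the most abundant and most changed genes of 9 other lists, and the 3 genes most like each of the 9. The members and the lists were chosen with earlier results of these data known. Gene positions come from GENCODE and promoters from RefSeq. Floors and intervals cover counting error only.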

Additional observations from a re-analysis of the deposited data

How the results depend on the processing

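Of 1620 values of the 9 genes under 18 alternatives, 1558 kept their direction and their side of the threshold, 26 lost a call, 18 gained one and 18 changed sign, and all 18 that changed sign were of genes not called. The count called in T567D against wild type, 1, was 3 without the filter, 2 with only the 2 lines compared, and 0 with limma on either RPKM scale and at an adjusted p under 0.01, and it ranged from 0 to 3 with libraries left out. In wild type against empty vector the count of 5 ranged from 3 to 5 with libraries left out and was 6 with limma on log2(RPKM + 1). The counts of the other 8 comparisons stayed within 1 of the reported value. Leaving out a library leaves a line with 1 library, which is then assumed to vary like the other lines.

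The replicate number as a block took the count in wild type against empty vector to 3 and changed no other count of the 9 genes. The numbers were not shown to pair libraries: deviations of same-numbered libraries correlated by -0.01, -0.10, -0.05 and -0.04 across genes. Sign changes under the replicate block were -0.028 for Ccl5 in wild type against empty vector, -0.14 for Ccl8 in T567A against T567D and -0.0083 for Cx3cl1 in T567D against empty vector. In wild type against parental, Ccl2 and Ccl5 turned to 0.021 and 0.00045 with upper-quartile scaling, to 0.033 and 0.021 with limma on log2(RPKM + 1), and to 0.034 and 0.022 on log2(RPKM + 0.1). With libraries left out, Ccl5 ranged from -0.28 to 0.041 in empty vector and from -0.18 to 0.13 in wild type against parental, Ccl2 from -0.041 to 0.016 in wild type and Ccl9 from -0.11 to 0.038 in T567A against parental, Cxcl12 from -0.056 to 0.063 in T567D against empty vector, and Ccl8 from -0.057 to 0.45 in T567A against T567D. The causes were not tested. Depth limits Ccl8, at 2 to 41 counts per line.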

Other observations

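The genes most like Cxcl5 over the 10 libraries, Nsa2, Zcchc9 and Rad17, all lie on chromosome 13 between positions 91796533 and 100651051, while Cxcl5 lies on chromosome 5. Over its tested genes, chromosome 13 had a median log2 fold change of 0.44 in empty vector against parental and -0.13 in wild type against empty vector, and chromosome 5 had 0.15 and -0.02. No chromosome other than 13 and the X chromosome, at -0.77, had a median as far from 0 in empty vector against parental. Chromosome 11 as a whole had a median of 0.02 in T567A against wild type, beside 0.21 to 0.38 in the 4 Mb steps around Ccl2.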
